A study of Mus musculus with 16 samples.

Results

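The genes described here are the 6 that release calcium from the sarcoplasmic reticulum of the heart or hold that store against the surface membrane: Ryr2, Fkbp1b, Jph1, Jph2, Itpr1 and Itpr2. They were chosen by symbol, as 6 of the 56953 genes in the deposited count table, and all 6 passed the filter on low counts that left 18662 genes for testing. By the same symbols, 47 of the 57891 distinct splicing events in the authors' 3 splicing tables belong to 5 of the 6 genes, 26 of them to Ryr2. Fkbp1b has no event in these tables.

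Samples were left ventricles of 16 Bl6J mice, males and females, 4 mice in each of 4 groups, with 1 library a mouse. WT mice or mice homozygous for the RBM20 mutation P635L were given 1e12 viral genomes of AAV9 by tail vein at 4 weeks of age, and hearts were taken 12 weeks later, at 16 weeks. WT Ctr and P635L Ctr mice received a control construct, pCAG-iCre-T2A-eGFP, which carries Cre recombinase and a green fluorescent protein behind the CAG promoter; WT Tnpo3 and P635L Tnpo3 mice received the Tnpo3 cDNA, whose promoter the labels do not give. No group went without virus, and the labels do not tie a sex to a single mouse.

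In a heart muscle cell, an action potential opens calcium channels of the T-tubule, and the calcium that enters opens the ryanodine receptor RYR2, the release channel of the sarcoplasmic reticulum, so that the store empties and the cell contracts. Junctophilins span the gap between both membranes and keep them close, FKBP12.6 (the product of Fkbp1b) binds RYR2 and stabilises its closed state, and the receptors for inositol trisphosphate form a second, slower release route. RBM20 is a splicing factor of the heart that represses or promotes exons of titin, Camk2d, Ryr2 and other muscle transcripts, and TNPO3 is a nuclear import receptor for proteins rich in serine and arginine.

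The feature of Ryr2 that separated the mutant hearts from the others was a microexon of 24 bases. It lies on the minus strand of chromosome 13 at chr13:11649193-11649216 (GRCm39), between an upstream exon of 54 bases (chr13:11650411-11650464) and a downstream exon of 100 bases (chr13:11637788-11637887), and all of it is coding. The 3 exons are shown together, with the microexon in capitals, because its use carries the main result. A second set is shown for comparison: the other short Ryr2 exons in the same tables, of 36, 21 and 15 bases, at chr13:11662588-11662623, chr13:11918104-11918124 and chr13:11905720-11905734, all coding and in lower case throughout. No GRCm39 genome was used here; exons were matched to GENCODE M21 transcripts (GRCm38) by exon length and the lengths of both flanking introns, and letters were read 5′ to 3′ from those transcripts. In that annotation 1 of the 14 Ryr2 transcripts, Ryr2-207, holds the microexon.
Ryr2 exons of 54, 24 and 100 bases: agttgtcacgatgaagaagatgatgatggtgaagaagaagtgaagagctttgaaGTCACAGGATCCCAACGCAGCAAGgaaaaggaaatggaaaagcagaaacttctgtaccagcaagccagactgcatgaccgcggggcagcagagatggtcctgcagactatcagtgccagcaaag
Ryr2 36-base exon: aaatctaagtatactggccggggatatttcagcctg
Ryr2 21-base exon: caggtggatgtggaaaagtgg
Ryr2 15-base exon: aagttcatgatgaag

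Ryr2 transcripts of P635L Ctr hearts held the 24-base exon far more often than those of WT Ctr hearts. Its inclusion level, the length-corrected share of junction reads that join the exon rather than skip it, was 22.6%, 17.9%, 18.1% and 22.3% in the 4 P635L Ctr libraries. In the 4 WT Ctr libraries it was 0.0%, 0.6%, 0.8% and 2.0%. Every P635L Ctr library thus lay above every WT Ctr library, by a mean of 19.4 percentage points, and the authors' deposited table lists an FDR of 0 for it. The reads behind these levels were 46 inclusion and 129 skipping reads in the shallowest P635L Ctr library and 12 inclusion and 495 skipping reads in the WT Ctr library with the highest level. The WT Ctr library listed at 0.0% had 145 skipping reads, and a count of 0 at that depth allows a level of up to 1.67%. An event was called where its FDR was under 0.05 and its level moved by 0.1 or more, provided that libraries averaged 10 or more junction reads. By this rule the exon was the 1 called of the 26 member events that reached the read minimum, against a background of 2.5% of all events in that comparison. limma, fitted to log2 inclusion over skipping reads, also called it (adjusted p = 0.00119 over all events, of which it called 0.15%), and it stayed called in limma with each of the 8 libraries left out in turn.

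In mutant hearts given the Tnpo3 virus the exon was used less. Its level was 2.7%, 3.3%, 2.7% and 10% in the 4 P635L Tnpo3 libraries, so that all 4 lay below the lowest P635L Ctr library. The mean difference from P635L Ctr was -15.6 percentage points (two-sided exact permutation p = 0.0286, the smallest that 70 assignments allow), and it was the 1 of 22 member events past the read minimum that met an exact p under 0.05 with a difference of at least 0.1, against 1.3% of all events joined across both mutant tables. limma, with adjustment over all joined events, did not call it (adjusted p = 0.122; 0.0578% of events called). Leaving out the P635L Tnpo3 library at 10%, which rests on 15 inclusion and 111 skipping reads, widened the difference to -17.3 points, and limma then called it (adjusted p = 0.0168). With any 1 of the other 7 libraries left out, limma did not call it (adjusted p = 0.207 to 0.275).

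The treated mutant libraries did not overlap with WT Ctr: the lowest, at 2.7%, stood above the highest WT Ctr library, at 2.0%. This gap rests on few reads: the treated libraries at 2.7% and 3.3% had 6 to 8 inclusion reads each. Set against WT Ctr, the P635L Tnpo3 level was 3.82 points higher. The authors' deposited table gives this an FDR of 0.000744, but the difference is under the size that was required for a call. limma did not call it either (adjusted p = 0.362, with 0.0319% of events called). In WT Tnpo3 the level was 0.0%, 1.0%, 1.2% and 2.4% and overlapped with WT Ctr, a difference of 0.3 points with an FDR of 1 in the authors' deposited table. The virus difference was thus -15.55 points in mutants and 0.3 points in WT hearts, where the level was already near 0 and could not fall by as much; whether the effect differed between the genotypes was not tested.

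**Figure D1:**
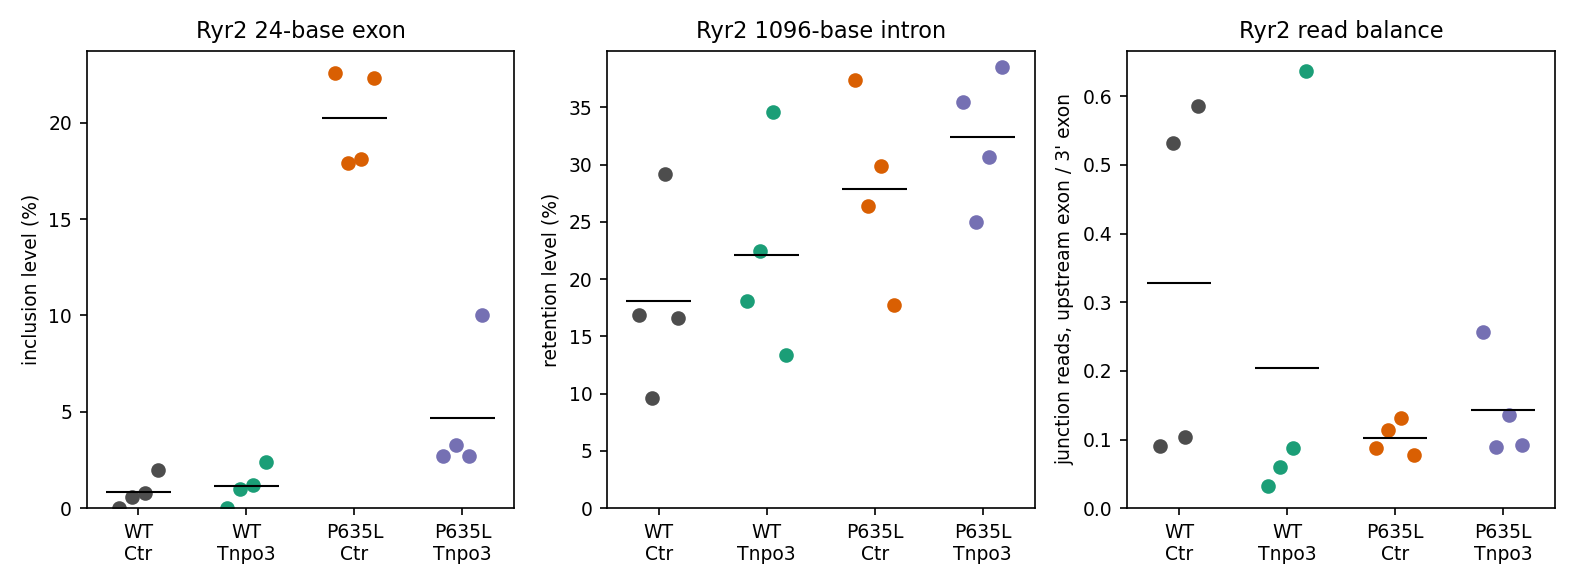
Each point is 1 library in the order the splicing tables list it, and each bar is a group mean. The left panel gives the inclusion level of the Ryr2 24-base exon, the middle panel the retention level of the 1096-base intron (both in percent), and the right panel junction reads over a Ryr2 exon 188981 bases upstream divided by those over an exon near the 3′ end. The 4 P635L Ctr libraries lie between 17.9% and 22.6% for the exon, above all others, whereas the intron levels overlap between groups and 3 WT libraries stand apart in read balance.

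The other short Ryr2 exons were not called in any table. The 36-base exon was included at a mean of 95.9% in WT Ctr and 96.5% in P635L Ctr, and the 21-base exon at 95.5% and 94.2%. The 15-base exon was covered by few reads: WT Ctr libraries stood at 37.0%, from 2 inclusion and 3 skipping reads, at 88.0% and at 100% in the other two. Outside WT Ctr, 11 libraries were at 100% and 1 P635L Ctr library at 90.6%. Of the 26 distinct Ryr2 events 23 are skipped exons.

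A 1096-base intron of Ryr2, at chr13:11661492-11662587 next to the 36-base exon, was retained at 16.9%, 9.6%, 29.2% and 16.6% in the WT Ctr libraries. Its level was 35.5%, 25.0%, 30.7% and 38.5% in P635L Tnpo3, 14.3 points higher on average, and the groups overlapped at 1 WT Ctr library. This was the 1 event called of 32 member events past the read minimum in that table (FDR 0.000207 in the authors' deposited table), where 2.09% of all events were called. limma did not call it (adjusted p = 0.362; 0.0319% of events called), and the exact permutation p was 0.0571. In P635L Ctr the level was 37.4%, 26.4%, 29.9% and 17.7%, 9.78 points above WT Ctr and just short of the size threshold (FDR 0.0369 in the authors' deposited table). In WT Tnpo3 it was 18.1%, 22.5%, 34.6% and 13.4%, which spanned the WT Ctr range. Treated and untreated mutants differed by 4.57 points (exact permutation p = 0.429), a difference within the spread of the libraries. An alternative 3′ splice site event in the same place shares reads with this intron and was not called.

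Reads over Ryr2 were spread unevenly along the gene in a way that differed between libraries. They were compared between an exon near the 3′ end (chr13:11587132-11587192) and, of the skipped-exon events in all 3 tables, the farthest upstream exon that under 2% of reads skip (chr13:11776113-11776321), which lies 188981 bases upstream and still nearer the 3′ end of the gene than its 5′ end. Junction reads over the upstream exon were 0.091, 0.532, 0.104 and 0.586 of those over the 3′ exon in the WT Ctr libraries. The ratio was 0.032, 0.06, 0.088 and 0.636 in WT Tnpo3. All 8 mutant libraries lay between 0.077 and 0.257. Thus 2 WT Ctr libraries and 1 WT Tnpo3 library held more upstream reads than the others. At the 21-base exon, 330972 bases upstream, the same 3 libraries stood at 0.293, 0.318 and 0.312 and the other 13 between 0.0475 and 0.145. The intron was at its lowest in these 3 libraries, at 9.6%, 16.6% and 13.4%, and at 16.9% or more in the other 13. Its relation to the read balance was not tested. The 24-base exon was at 2.4% or less in all 8 WT libraries. In the 3 with more upstream reads it was at 0.6%, 2.0% and 2.4%, and in the other WT libraries at 0.0% to 1.2%. Its relation to the read balance was not tested either.

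**Figure D2:**
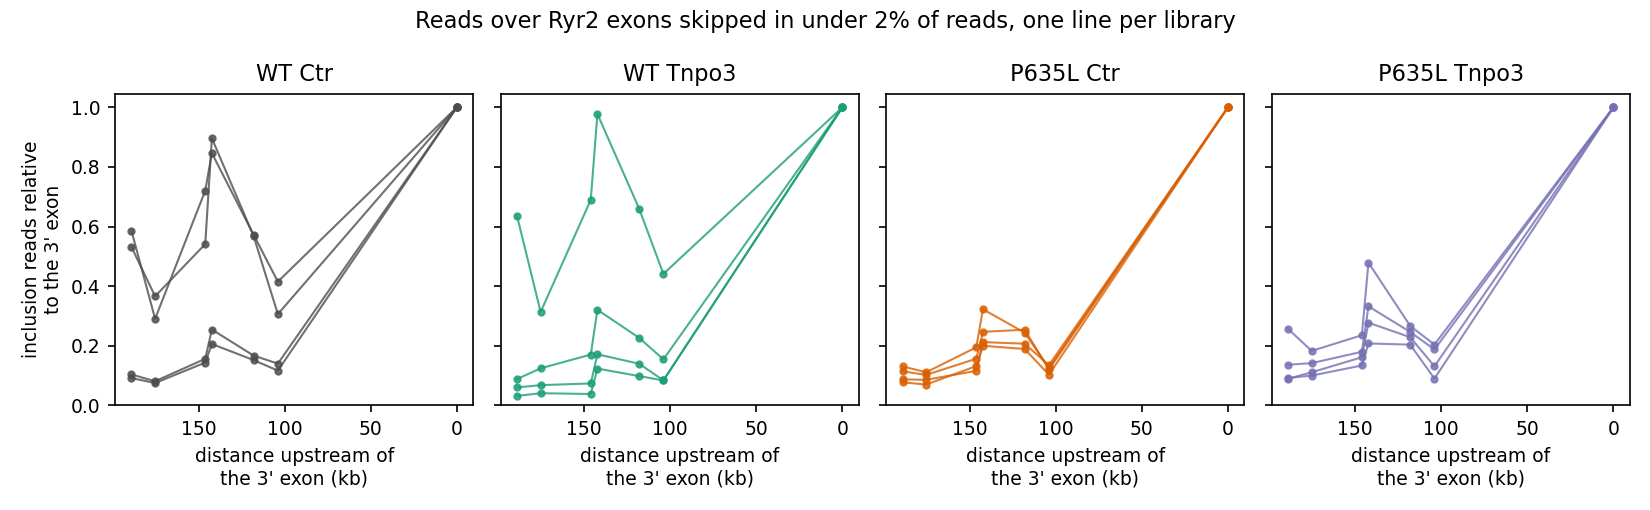
Inclusion junction reads over Ryr2 exons that under 2% of reads skip, divided by the reads over the exon nearest the 3′ end, against the distance from that exon in kilobases. Each line is 1 library, with 1 panel a group. At the farthest upstream of these exons 3 WT libraries stand between 0.532 and 0.636, and the other 13 between 0.032 and 0.257.

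The events whose level followed that of the 24-base exon most closely over the 16 listed libraries came from other genes (a description over 13321 events with at least 10 junction reads per library and a range of at least 10 percentage points, chosen after the data had been seen). The closest was an 85-base exon of Anapc15 (Pearson r = -0.983), whose mean fell from 99.7% in WT Ctr to 86.2% in P635L Ctr and stood at 97.9% in P635L Tnpo3. Then came 2 exons of triadin, Trdn, which anchors calsequestrin at RYR2: an 18-base exon (r = -0.957), at 95.1%, 84.2% and 93.0% in the same 3 groups, and a 48-base exon (r = -0.954), at 75.9%, 63.0% and 74.6%. Lower in the ranking, an exon of the kinase gene Camk2d, whose product phosphorylates RYR2, had r = 0.91 and stood at 4.4%, 95.8% and 33.1%, and a 78-base exon of titin, Ttn, had r = 0.927. Events of other genes were closer than that of Camk2d: Arhgap10 (r = 0.954 and 0.927), Pdlim5 (r = -0.936), Myl6 (r = 0.917) and Psmg4 (r = 0.916). These correlations rest on differences between groups of the same libraries.

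At the level of the whole gene, the members differed widely. Per kilobase of annotated exon, WT Ctr hearts held Jph2 at 181 ± 54.2 CPM, the count scaled to library size (SD, n = 4), and Ryr2 at 29.0 ± 9.33. Itpr2 (3.00 ± 0.606), Itpr1 (2.68 ± 0.675) and Jph1 (2.28 ± 0.541) did not differ from each other beyond their spread, and Fkbp1b was lowest at 0.899 ± 0.213. Long transcripts with uneven read coverage, as Ryr2 showed, make such levels approximate. All samples are bulk tissue, in which fewer cells of a type and less RNA per cell cannot be told apart.

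Tests on gene counts used edgeR's quasi-likelihood fit over all 16 libraries, with p-values adjusted by the Benjamini-Hochberg method over all 18662 genes. With the control virus, 1 of the 6 members was called changed between the genotypes, Jph1, against 14.2% of all genes called and 7.14% called lower. The authors' deposited table for P635L Ctr against WT Ctr calls 3 of the 6, Jph1, Jph2 and Itpr2 (15.6% of all genes there), and the authors' deposited table for P635L Tnpo3 calls 2 of 6, Jph1 and Jph2 (6.25%); the authors' deposited table for WT Tnpo3 calls 0 of 6 (0.0123%). Of the 6 log2 fold changes from edgeR 5 were negative, with a median of -0.469, beside -0.049 over all genes tested. No member was called in the other comparisons: P635L Tnpo3 against WT Tnpo3, where 3.72% of all genes were called, P635L Tnpo3 against P635L Ctr (3.88%), P635L Tnpo3 against WT Ctr (3.07%) and WT Tnpo3 against WT Ctr (0.00536%). At an unadjusted p under 0.05 the members called numbered 4 of 6 for P635L Ctr against WT Ctr (28.1% of all genes), 2 for P635L Tnpo3 against WT Tnpo3 (20.1%) and 0 for P635L Tnpo3 against P635L Ctr (18.4%). They numbered 3 for P635L Tnpo3 against WT Ctr (18.3%) and 0 for WT Tnpo3 against WT Ctr (3.2%). The interaction of virus and genotype asks whether the virus acted differently in the genotypes. It was called for 0 members and for 0.504% of all genes. At an unadjusted p under 0.05 it held for 0 members and 12.4% of all genes. DESeq2 called it for 0 members and 2.07% of all genes.

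**Figure D3:**
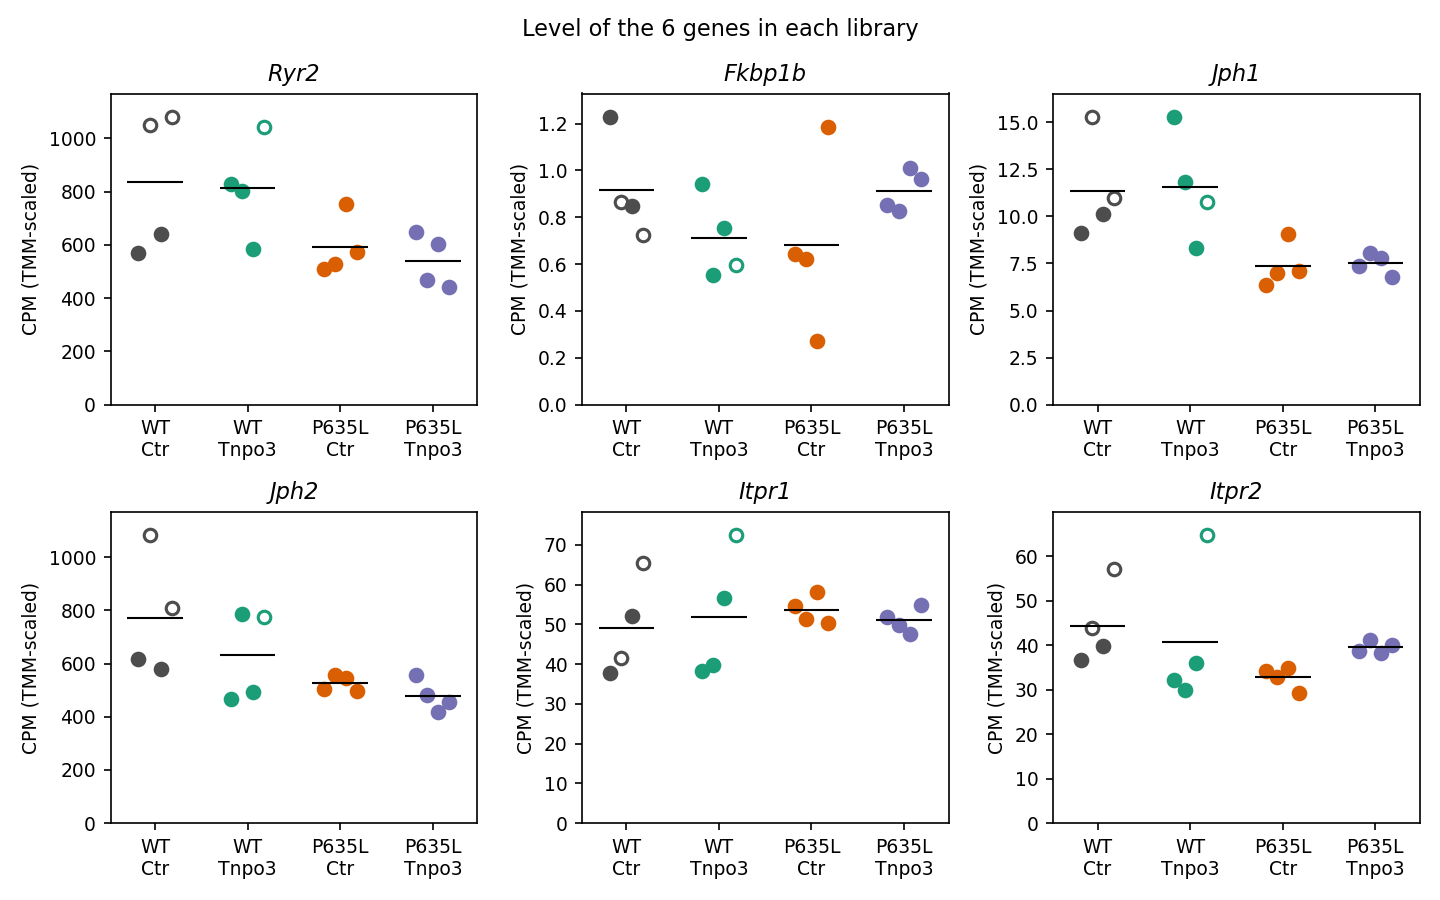
CPM of each of the 6 genes on a linear axis from 0, with 1 point a library and a bar at the group mean. Open points mark the 3 libraries in which the gene ENSMUSG00000119584 holds at least 19.96% of the counts. Ryr2 stands between 1043 and 1082 CPM in those 3 libraries and between 442 and 828 in the other 13.

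Ryr2, the release channel, stood at 568, 1052, 643 and 1082 CPM in the WT Ctr libraries and at 511, 528, 754 and 572 CPM in P635L Ctr. The groups overlapped, and the log2 fold change of -0.50 (SE 0.22) was not called (adjusted p = 0.142). WT Tnpo3 libraries held 828, 803, 583 and 1043 CPM, and P635L Tnpo3 libraries held 650, 468, 603 and 442. The mutant difference with the Tnpo3 virus was of like size, at -0.59 (SE 0.22, adjusted p = 0.138), and the virus made a difference of -0.13 in mutants (SE 0.22, adjusted p = 0.819) and -0.04 in WT hearts (SE 0.22, adjusted p = 1).

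The 3 highest Ryr2 values belong to WT Ctr replicates 2 and 4 and WT Tnpo3 replicate 4. These are the libraries in which the gene ENSMUSG00000119584, listed without a symbol, took 19.96% to 22.65% of all counts, against 0.7% to 5.3% in the other 13. Without them the log2 fold change of Ryr2 between P635L Ctr and WT Ctr was 0.00 (SE 0.19, adjusted p = 0.999), and that between P635L Tnpo3 and WT Tnpo3 was -0.45 (SE 0.17, adjusted p = 0.0954). The libraries with more upstream reads of Ryr2 stand at listed positions 2 and 4 in WT Ctr and 4 in WT Tnpo3. These positions carry the same numbers as the 3 replicates. The splicing tables do not say which replicate each listed library is, so whether they are the same libraries was not tested. The genes whose log2 CPM followed Ryr2 most closely over the 16 libraries, of 12489 compared, were Vcl (r = 0.978), Sipa1l2 (r = 0.975) and Vps13d (r = 0.96).

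Fkbp1b, which encodes the RYR2-binding FKBP12.6, had few reads, with 12 counts in the lowest library. It stood at 1.23, 0.866, 0.85 and 0.725 CPM in WT Ctr and at 0.645, 0.623, 0.274 and 1.19 CPM in P635L Ctr, and the groups overlapped. The log2 fold change was -0.42 (SE 0.36, adjusted p = 0.482). WT Tnpo3 libraries ranged from 0.555 to 0.941 CPM and P635L Tnpo3 libraries from 0.825 to 1.01, a log2 fold change of 0.42 over P635L Ctr (SE 0.36, adjusted p = 0.592). No difference in Fkbp1b was detected at this depth, where the SE was 0.36.

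Jph1, the junctophilin best known from skeletal muscle, was the member that passed the test. It held 9.12, 15.3, 10.1 and 10.9 CPM in WT Ctr and 6.36, 6.97, 9.05 and 7.10 CPM in P635L Ctr. Every P635L Ctr library lay below every WT Ctr library, as in 9.43% of all genes tested. Of the members, 3 lay wholly below WT Ctr in this way, Jph1, Jph2 and Itpr2. Jph1 fell by 0.62 on the log2 scale (SE 0.18, adjusted p = 0.0277). With the Tnpo3 virus the genotypes differed by the same amount, -0.62 (SE 0.18, adjusted p = 0.0634), from 15.3, 11.8, 8.33 and 10.7 CPM in WT Tnpo3 to 7.37, 8.04, 7.78 and 6.80 CPM in P635L Tnpo3, again without overlap, as in 5.7% of all genes. DESeq2 called this difference (adjusted p = 0.0215, with 8.98% of all genes called). The virus made a difference of 0.03 in mutants (SE 0.18, adjusted p = 0.962). The call in control hearts ended without WT Ctr replicate 2, the highest WT Ctr library (log2 fold change -0.43, adjusted p = 0.135), and without P635L Ctr replicate 1 (-0.54, 0.0952), 2 (-0.58, 0.0853) or 4 (-0.61, 0.0707). It ended as well without the 3 libraries with high Xist, at a fold change of like size (-0.60, adjusted p = 0.0639). It also ended without the 3 libraries rich in ENSMUSG00000119584 (-0.35, adjusted p = 0.287), where 11.9% of all genes were called. In the same fit the comparison in Tnpo3 hearts was called (-0.66, adjusted p = 0.0317, with 9.66% of all genes called). The rich and the high-Xist libraries both include WT Ctr replicate 4 and WT Tnpo3 replicate 4, so leaving out either set is not a separate check.

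Jph2, the main cardiac junctophilin and the most abundant member per kilobase, stood at 617, 1083, 578 and 809 CPM in WT Ctr and at 504, 556, 545 and 496 CPM in P635L Ctr. No library of one group reached the other, but the log2 fold change of -0.55 (SE 0.20) missed the threshold (adjusted p = 0.0674). P635L Tnpo3 libraries held 558, 480, 419 and 457 CPM, also all below WT Ctr, as in 6.92% of all genes, with a log2 fold change of -0.69 (SE 0.20, adjusted p = 0.0647). WT Tnpo3 libraries held 467, 788, 493 and 774 CPM and overlapped with every other group. Jph2 passed the threshold in DESeq2, against WT Ctr, in P635L Ctr (adjusted p = 0.0466, with 14.9% of all genes called) and in P635L Tnpo3 (adjusted p = 0.0207, with 5.74%). Without the 3 libraries rich in ENSMUSG00000119584 the log2 fold changes were -0.15 (adjusted p = 0.645) and -0.28 (adjusted p = 0.481).

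**Figure D4:**
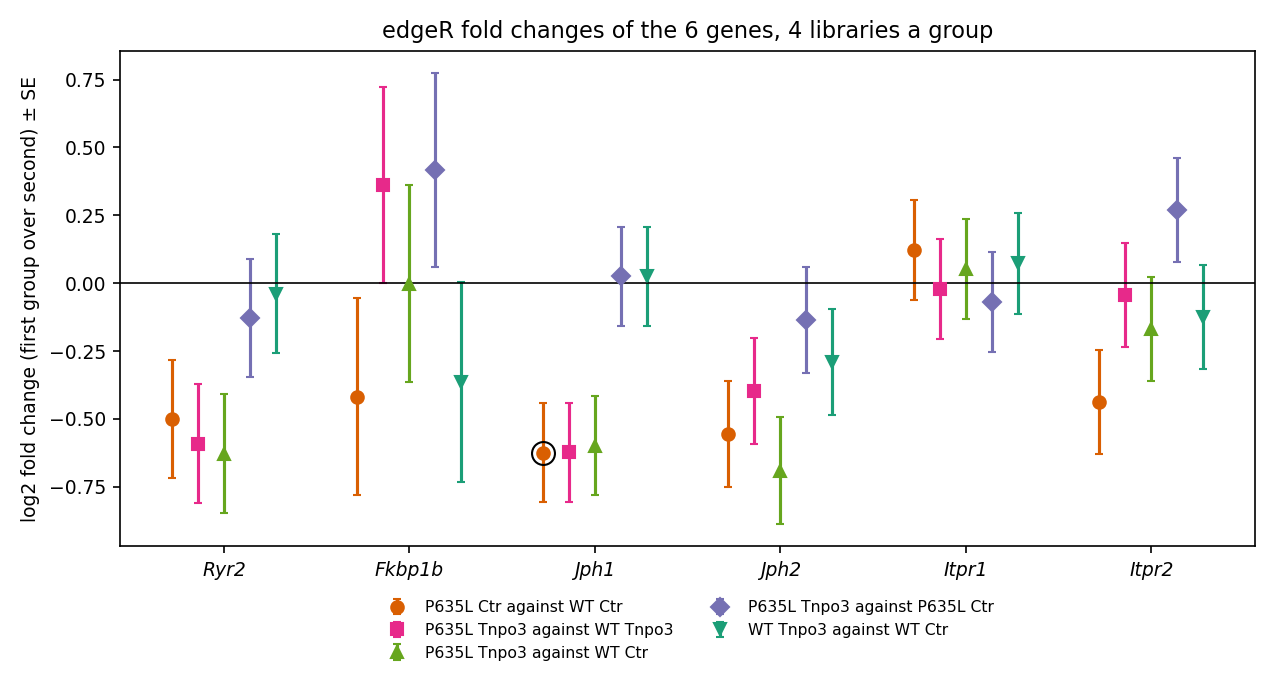
log2 fold changes from edgeR with their standard errors for the 6 genes in 5 comparisons of 4 libraries against 4. A ring marks the 1 value with an adjusted p under 0.05, Jph1 in P635L Ctr against WT Ctr, at -0.62. Comparisons with WT Ctr share its 4 libraries.

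Of the inositol trisphosphate receptors, Itpr2, the main form of heart muscle cells, stood at 36.6, 44.0, 39.9 and 57.1 CPM in WT Ctr and at 34.1, 32.9, 34.9 and 29.4 CPM in P635L Ctr. These groups did not overlap, yet the log2 fold change of -0.44 (SE 0.19) was not called (adjusted p = 0.144). P635L Tnpo3 libraries held 38.8, 41.1, 38.2 and 40.1 CPM, all above P635L Ctr, as in 9.36% of all genes, with a log2 fold change of 0.27 (SE 0.19, adjusted p = 0.498). This difference was called when only the 8 mutant libraries were fitted (0.27, adjusted p = 0.033), a fit in which 15.9% of all genes were called. The WT Tnpo3 libraries ran from 29.96 to 64.8 CPM, a range that covered P635L Tnpo3 and all of P635L Ctr but its lowest library, at 29.4 CPM.

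Itpr1 was not called in any comparison. It held 37.9, 41.4, 52.0 and 65.4 CPM in WT Ctr and 54.5, 51.2, 58.1 and 50.4 CPM in P635L Ctr, a log2 fold change of 0.12 (SE 0.18, adjusted p = 0.708). P635L Tnpo3 libraries stood between 47.6 and 54.8 CPM, inside the WT Ctr range. In every comparison the log2 fold change of Itpr1 lay between -0.14, the interaction, and 0.12.

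Itpr1 carries short exons that are spliced differently in neurons and other tissues, and the tables hold several of them. A 51-base exon at chr6:108409607-108409657, on the plus strand and coding, is printed with a 45-base exon at chr6:108342260-108342304 because both show how ventricle uses this gene, the first nearly always skipped and the second mostly kept.
Itpr1 51-base exon: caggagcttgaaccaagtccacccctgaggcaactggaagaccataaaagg
Itpr1 45-base exon: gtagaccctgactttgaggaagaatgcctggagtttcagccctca
The 51-base exon stood at 21.5%, 0.0%, 1.6% and 3.9% in WT Ctr and at 3.1%, 3.4%, 5.7% and 5.3% in P635L Ctr. It stood at 0.0%, 0.0%, 5.8% and 9.9% in WT Tnpo3 and at 1.3%, 0.0%, 3.0% and 4.4% in P635L Tnpo3, and all groups overlapped. Its smallest FDR in the authors' deposited tables was 0.34. The 4 libraries at 0.0% had 15 to 72 skipping reads, and these counts of 0 allow levels of up to 2.77% to 12.0%. The 45-base exon was covered by 0 to 40 reads a library and ranged from 41.5% to 100% where it could be measured. No Itpr1 event was called in any comparison.

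Neither junctophilin exon in these tables was called. A 772-base exon of Jph2 (chr2:163217524-163218295) was included in 100% of reads in all groups but WT Ctr, where 1 library stood at 98.9%. A 119-base exon of Jph1 (chr1:17086263-17086381) was at 100% except for 1 WT Ctr library at 66.7%, which rests on 1 skipping read. An Itpr2 exon of 161 bases (chr6:146045607-146045767), with an FDR of 1 in the authors' deposited table, was at 98.9% in P635L Tnpo3 and 100% in WT Ctr. The other Itpr2 exon past the read minimum, of 201 bases, was at 93.3% and 100%, with 1 P635L Tnpo3 library at 73.3%. The remaining 5 Itpr2 events had fewer reads than the minimum, and group means of a 57-base exon among them ran from 29.1% to 100% in its 2 versions. In the table of WT Tnpo3 against WT Ctr 22 member events reached the read minimum and 0 were called (0 by limma as well), against 0.928% of all events.

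Of 18 listed partner genes, all tested, 2 rose and 4 fell in P635L Ctr against WT Ctr, with a median log2 fold change of -0.124. Of all genes tested, 14.2% were called in this comparison and 7.14% were called lower, and the median over all genes was -0.049. Casq1, the calsequestrin of skeletal muscle that stores calcium beside the channel, rose from 8.6 to 12.2 CPM in WT Ctr to 285 to 373 CPM in P635L Ctr (log2 fold change 4.98, SE 0.25, adjusted p = 1.46e-09). It stood at 71.5 to 120 CPM in P635L Tnpo3, a fall of 1.84 on the log2 scale against P635L Ctr (SE 0.22, adjusted p = 1.43e-04). The interaction was called for it too (-2.10, SE 0.30, adjusted p = 0.00397). Ryr1, the skeletal ryanodine receptor, was the other gene that rose and is named because it is the paralog of Ryr2, after its values had been seen. It rose by 2.36 (SE 0.50, adjusted p = 0.00331), from 0.319 to 1.01 CPM in WT Ctr to 1.70 to 4.08 CPM in P635L Ctr. The defining genes of skeletal fibres, Myh1, Myh2, Myh4 and Mylpf, summed to 1.32 to 3.15 CPM over all 16 libraries.

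Among the partners that fell were Hrc, a luminal calcium-binding protein, by 1.05 on the log2 scale (SE 0.16, adjusted p = 1.87e-04), and Tmem38a, a potassium channel of the store, by 0.90 (SE 0.14, adjusted p = 2.73e-04). Trdn fell by 0.65 (SE 0.12, adjusted p = 7.77e-04). Trdn was the 1 partner that rose with the virus in mutants, by 0.56 (SE 0.12, adjusted p = 0.0101), from 358 to 434 CPM in P635L Ctr to 572 to 622 CPM in P635L Tnpo3. The 2 groups did not overlap. Thus in mutant hearts given the virus 1 of 18 partners rose and 1 fell, with a median log2 fold change of -0.03 beside 0.007 over all genes. In this comparison 3.88% of all genes were called. In WT hearts the virus changed 0 of 18, and 1 gene of all 18662, Tnpo3, was called. At an unadjusted p under 0.05 it changed 0 of 18, beside 3.2% of all genes.

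Of 14 genes of the dyad and T-tubule, 1 rose and 1 fell in P635L Ctr against WT Ctr, with a median log2 fold change of -0.355. Tcap, which links the Z-disc to the T-tubule, fell by 0.64 (SE 0.19, adjusted p = 0.0323). Jph4, the neuronal junctophilin, rose by 1.68 (SE 0.47, adjusted p = 0.022) at 0.165 to 0.434 CPM in WT Ctr and 0.599 to 1.055 CPM in P635L Ctr. In mutants the virus changed 0 of these 14, beside 3.88% of all genes. An unadjusted p under 0.05 was reached by 2 of the 14, beside 18.4% of all genes. Of 15 genes of the inositol trisphosphate arm, 1 rose and 3 fell with the mutation, with a median of -0.053. The share of all genes called was again 14.2% and their median -0.049. Itprip, whose product binds the inositol trisphosphate receptor, rose by 1.16 (SE 0.10, adjusted p = 3.69e-07), from 20.9 to 23.6 CPM in WT Ctr to 46.0 to 51.2 CPM in P635L Ctr. It fell by 0.91 with the virus in mutants (SE 0.10, adjusted p = 4.14e-05), to 23.7 to 28.1 CPM. Adra1a, an α1-adrenergic receptor that feeds this pathway, fell by 1.90 (SE 0.28, adjusted p = 1.75e-04). Homer1, a scaffold that binds the receptors, fell by 0.76 (SE 0.20, adjusted p = 0.0144), and Ednra, an endothelin receptor, by 0.66 (SE 0.19, adjusted p = 0.0231).

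Several features of the whole series moved with these comparisons. Library totals ran from 28493249 to 85922669 counts. Tnpo3 stood at 41.6 to 49.4 CPM in the 8 control libraries and at 231 to 723 CPM in the 8 given its virus, as the labels state, and Rbm20 was not called in any comparison. The cardiomyocyte markers (Myh6, Tnnt2, Tnni3, Actc1 and Myl2) summed to 67336 to 80589 CPM in WT Ctr and 48745 to 53077 CPM in P635L Ctr, with 3 of 5 called lower. In P635L Tnpo3 they summed to 51020 to 60692 CPM, below all WT Ctr libraries. The fibroblast markers (Col1a1, Dcn, Pdgfra and Tcf21) summed to 546 to 830 CPM and 979 to 1435 CPM, with 4 of 4 called higher, and to 654 to 893 CPM in P635L Tnpo3. In P635L Ctr against WT Ctr 14.2% of all genes were called in either direction and 7.14% were called lower. Atrial markers summed to at most 10.1 CPM in any library. Xist exceeded the Y-linked genes in 3 WT libraries and 0 of the 8 mutant ones. The 3 were WT Ctr replicate 4 and WT Tnpo3 replicates 2 and 4, of which both replicates 4 were also rich in ENSMUSG00000119584. What part these differences have in the values of Jph1 and the partners was not tested.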

How the data were processed

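RNA of left ventricles was sequenced from libraries that a stranded kit made after poly(A) selection, per the labels' protocols. The authors' deposited gene table holds raw counts; the submitters' processing notes name STAR 2.7.9a, featureCounts 2.0.6, DESeq2 and GRCm39. Whether counting used strand is not given in the sources used here, so values of Ryr2, Jph1, Itpr1 and Itpr2, which other genes overlap on the other strand, are uncertain to that extent; Fkbp1b and Jph2 have no such overlap. The authors' deposited comparison tables hold log2 fold changes with a p-value and an adjusted p-value, which the file headers mark as DESeq2 output, always against WT Ctr. The deposited rMATS tables, per the file headers, give junction read counts per library, inclusion levels as a fraction of 1, a difference score in inclusion level (WT Ctr minus the other group) and a p-value and FDR per event, for 3 comparisons with WT Ctr. The order of libraries within a group is not stated there.

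From these, CPM with TMM factors and edgeR 4.0.16 tests (R 4.3.3) were computed, with genes kept by filterByExpr and a two-sided adjusted p under 0.05 as the call. Inclusion differences are the other group minus WT Ctr. P635L Tnpo3 and P635L Ctr lie in different tables, so their events were joined on all coordinates; 29352 joined events past the read minimum were tested by exact permutation. WT Ctr reads differ between tables in 15 of 32682 shared events, none of a member. Alternatives used limma 3.58.1 (pseudocount 0.5 reads) and DESeq2 1.42.0. On simulated counts the edgeR test recovered 55.6% of 2-fold and 81.4% of 4-fold changes over 18372 genes, with 5.8% of calls false; on simulated reads over 34690 events limma found 61% of those of size 0.2 and 93% of those of size 0.4. Intervals and limits cover counting error only. No 2 libraries of a group agreed within sampling noise (chi-square per degree of freedom of 17.8 or more). Mice are separate animals per the labels.

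The 6 members, the lists and the markers were chosen with earlier results of these data known. Named genes are the members, Tnpo3, Rbm20, the 3 genes most alike each member, and up to 4 genes per list with the smallest adjusted p among those called in P635L Ctr against WT Ctr or in P635L Tnpo3 against P635L Ctr; Ryr1 was added after its values had been seen, and 1 gene of the partner list is not reported here. Named events are those called in a deposited table or, for a member with none, its event with the smallest FDR; short exons of Ryr2 and Itpr1 were added after their values had been seen.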

Additional observations from a re-analysis of the deposited data

Results flagged for a closer look

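Of 46 groups of 4 libraries checked, 4 held a library far from the other 3. The chance rate of this rule, about 1 in 20, does not hold where values are tied. The P635L Tnpo3 library at 10% inclusion of the Ryr2 24-base exon stood apart from the other 3, at 2.7% to 3.3%. The others were exons at 100% in every other library of their group: a Jph1 exon at 66.7% and a Jph2 exon at 98.9%, each in 1 WT Ctr library, and an Itpr2 exon at 95.4% in 1 P635L Tnpo3 library. With the other values equal, any single library below 100% is flagged, however few its skipping reads.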

How the results depend on the processing

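In P635L Ctr against WT Ctr the number of members called was 1, and it was 2 with DESeq2 (Jph1 and Jph2), 0 without the 3 libraries rich in ENSMUSG00000119584, 0 without the 3 libraries with high Xist (15.5% of all genes called), and 0 to 2 with 1 library left out (9.48% to 16.5%). It was 0 in the other comparisons, and 1 with DESeq2 and 1 without the 3 rich libraries in P635L Tnpo3 against WT Tnpo3 (0 to 1 with 1 library left out, 1.47% to 6.41% of all genes), 1 with DESeq2 in P635L Tnpo3 against WT Ctr (0 to 2, 1.48% to 3.86%), and 1 with only the mutants fitted in P635L Tnpo3 against P635L Ctr. The events called numbered 2 with a size of 0.05 (4.35% of all events) and 0 with a size of 0.2 (0.758%) in P635L Ctr against WT Ctr. In P635L Tnpo3 against WT Ctr they numbered 0 with a size of 0.2 (0.678%) and 0 with limma, and in P635L Tnpo3 against P635L Ctr 0 with limma (0 to 1 with 1 library left out).

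Signs turned only for differences that were not called. Without the 3 rich libraries Ryr2 was at 0.00 in P635L Ctr against WT Ctr and 0.32 in WT Tnpo3 against WT Ctr, Itpr1 and Itpr2 at 0.19 and 0.27 in P635L Tnpo3 against WT Tnpo3, Itpr2 at 0.08 in P635L Tnpo3 against WT Ctr, and the interactions of Jph1 and Jph2 at -0.30 and -0.13. Without the high-Xist libraries Jph2, Itpr1 and Itpr2 were at 0.01, 0.11 and 0.22 in P635L Tnpo3 against WT Tnpo3, Itpr2 at 0.02 against WT Ctr, and the interaction of Jph1 at -0.04. With upper-quartile factors Itpr1 was at 0.00 in P635L Tnpo3 against WT Tnpo3. Fkbp1b in P635L Tnpo3 against WT Ctr lay between 0.01 and 0.05 (0.02, 0.03, 0.04) under 7 settings, and the interaction of Jph1 between -0.01 and -0.03 (-0.02) under 5. The rich and the high-Xist libraries share WT Ctr replicate 4 and WT Tnpo3 replicate 4. The causes of these turned signs were not tested.

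With 1 library left out, the log2 fold change in P635L Tnpo3 against WT Tnpo3 ran from -0.14 to 0.18 for Itpr1 and -0.16 to 0.27 for Itpr2. In P635L Tnpo3 against P635L Ctr it ran from -0.23 to 0.01 for Ryr2 and -0.02 to 0.14 for Jph1. In WT Tnpo3 against WT Ctr it ran from -0.18 to 0.12 for Ryr2, -0.14 to 0.23 for Jph1, -0.13 to 0.24 for Itpr1 and -0.44 to 0.03 for Itpr2. In P635L Tnpo3 against WT Ctr it ran from -0.10 to 0.17 for Fkbp1b and -0.05 to 0.22 for Itpr1. The interaction ran from -0.25 to 0.05 for Ryr2, -0.20 to 0.16 for Jph1, -0.08 to 0.27 for Jph2 and -0.31 to 0.06 for Itpr1. The Itpr1 51-base exon ran from -4.62 to 2.55 points in P635L Ctr, -6.84 to 0.33 in P635L Tnpo3 and -5.07 to 2.10 in WT Tnpo3, each against WT Ctr. In the last the Ryr2 intron ran from -0.09 to 7.78 points and the 24-base exon from -0.14 to 0.69.

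Over 24 pairs of same-numbered libraries from different groups, deviations from the group means correlated at -0.257 to 0.552 (median -0.058). The correlation exceeded 0.1 in 6 of these pairs. Libraries with different numbers were not compared, so whether the replicate numbers pair the mice was not tested. With the replicate number as a block the count of members called was 1 in P635L Ctr against WT Ctr (Jph1, adjusted p = 0.0459), beside 13.3% of all genes. It was 0 elsewhere, where 0.00536% to 3.63% of all genes were called. Itpr1 and Itpr2 were then at 0.02 and 0.01 in P635L Tnpo3 against WT Tnpo3.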
